A study of Homo sapiens with 12 samples.

Results

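SK-UT-1 is an established human line grown from a uterine leiomyosarcoma, a cancer of the muscle wall of the womb. The genes described here are 10 receptor tyrosine kinases chosen by name and not by a threshold on their values: the ERBB receptors EGFR, ERBB2, ERBB3 and ERBB4, the hepatocyte growth factor receptor MET, the TAM receptor AXL, the collagen receptors DDR1 and DDR2, and the Wnt-binding receptors ROR1 and ROR2. The deposited table held 22784 gene symbols, with a row for 9 of the 10 receptors, and 8 of those 9 were abundant enough to be tested among 14839 genes. All libraries came from SK-UT-1 cells kept for 48 h in medium with vehicle (DMSO, 3 libraries), with 5 µM JQ1 (4 libraries) or with 5 µM I-BET 762 (3 libraries). JQ1 and I-BET 762 both block BET bromodomain proteins, which read acetylated histones and help to start transcription. Of 12 labelled samples, 1 of the DMSO group and 1 of the I-BET 762 group had no values to analyse here, and the study's methods state that outlier samples were left out, so the spread within groups may understate that of all samples made. The labels do not say that libraries of a group came from separate cultures, so the p-values measure the spread between these libraries, which may be technical.

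Receptor tyrosine kinases cross the plasma membrane once, bind a ligand outside the cell, pair up and phosphorylate each other's tails, onto which adaptor proteins and kinases dock. The ERBB receptors work as pairs: EGFR binds EGF-type ligands, ERBB3 and ERBB4 bind neuregulins, ERBB2 has no known ligand and is the preferred partner, and ERBB3 has little kinase activity of its own. MET answers to hepatocyte growth factor, AXL to GAS6, the DDR receptors to fibrillar and basement membrane collagens, and ROR1 and ROR2 to WNT5A. In sarcoma cells, which are of mesenchymal type, MET, AXL and DDR2 are commonly expressed.

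The values were deposited as log2(normalized count + 1), and each is given here as the normalized count, that is, reads on a gene divided by the library's size factor. Between 35564586 and 39658989 reads fell on genes in a library, and the libraries of a group differed beyond sampling noise. Group means below carry their SD over the 3 DMSO, 4 JQ1 or 3 I-BET 762 libraries. A gene was called changed at a Benjamini-Hochberg adjusted p under 0.05 in limma and a fold change above 1.5. By that rule JQ1 changed 36.1% of the tested genes (22.8% lower, 13.3% higher) and I-BET 762 changed 26.9% (17.9% lower, 8.96% higher), and 71.7% and 61.1% had an adjusted p under 0.05 with any fold. JQ1 called 1979 genes higher and 3379 lower, which became 1222 and 4217 when libraries were rescaled to equal totals, a scaling that moved the median log2 fold change of all genes to -0.18. HEXIM1, which BET inhibitors are known to raise, had a mean of 1627 ± 22.6 normalized counts with DMSO, 4718 ± 218 under JQ1 and 3370.4 ± 142 under I-BET 762. MYC, which these inhibitors lower in many blood cancers, was higher instead, at 5176 ± 188, 10372 ± 583 and 7517 ± 410.1 in the same order. Of the smooth muscle markers, 7 of 7 tested fell with JQ1 and 6 of 7 with I-BET 762. The 4 leukocyte markers with a row summed to at most 5.07 normalized counts in any library, and the 4 endothelial markers to at most 7.40. Vimentin (VIM), a mesenchymal marker, stood at 110805 to 119350 in DMSO, 150131 to 161468 with JQ1 and 123919 to 126882 with I-BET 762. The 6 epithelial markers summed to 1231 to 1289.7 in DMSO, 517 to 612 with JQ1 and 507 to 547 with I-BET 762. Of the 5 tested, 4 were called lower with each inhibitor. Among these 5, CLDN4 was abundant enough to be tested only through the DMSO libraries. Its mean was 18.2 normalized counts with DMSO, 9.50 with JQ1 and 5.92 with I-BET 762. Any call of CLDN4 as lower was thus partly set by the filter on low values. ERBB3, SPINT1 and SPINT2 were called lower than in DMSO with both inhibitors, as were most of the tested epithelial markers. Between the inhibitors ERBB3 was lower with JQ1 (log2 difference -0.58), while the 5 tested epithelial markers had a median of 0.03. The part of these markers in the results for ERBB3, SPINT1 and SPINT2 was not tested.

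Of the 8 receptors tested, JQ1 lowered 4 (ERBB3, AXL, DDR2 and ROR2) and raised 0, where 22.8% of all tested genes were called lower. I-BET 762 lowered 2, ERBB3 and AXL, and raised 0, against 17.9% of all tested genes. The median log2 fold change of the 8 receptors was -0.71 with JQ1 and -0.37 with I-BET 762, beside 0.01 and -0.00 over all tested genes. At an adjusted p under 0.05 with any fold, 7 receptors were lower with JQ1, beside 5289 of the 14839 tested genes. With I-BET 762 5 receptors were lower and 1 was higher, beside 4639 and 4434 genes. Since both comparisons used the same 3 DMSO libraries, their results are not independent of each other. In RNA from bulk cultures, fewer cells that express a gene and less of its RNA per cell cannot be told apart.

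**Figure D1:**
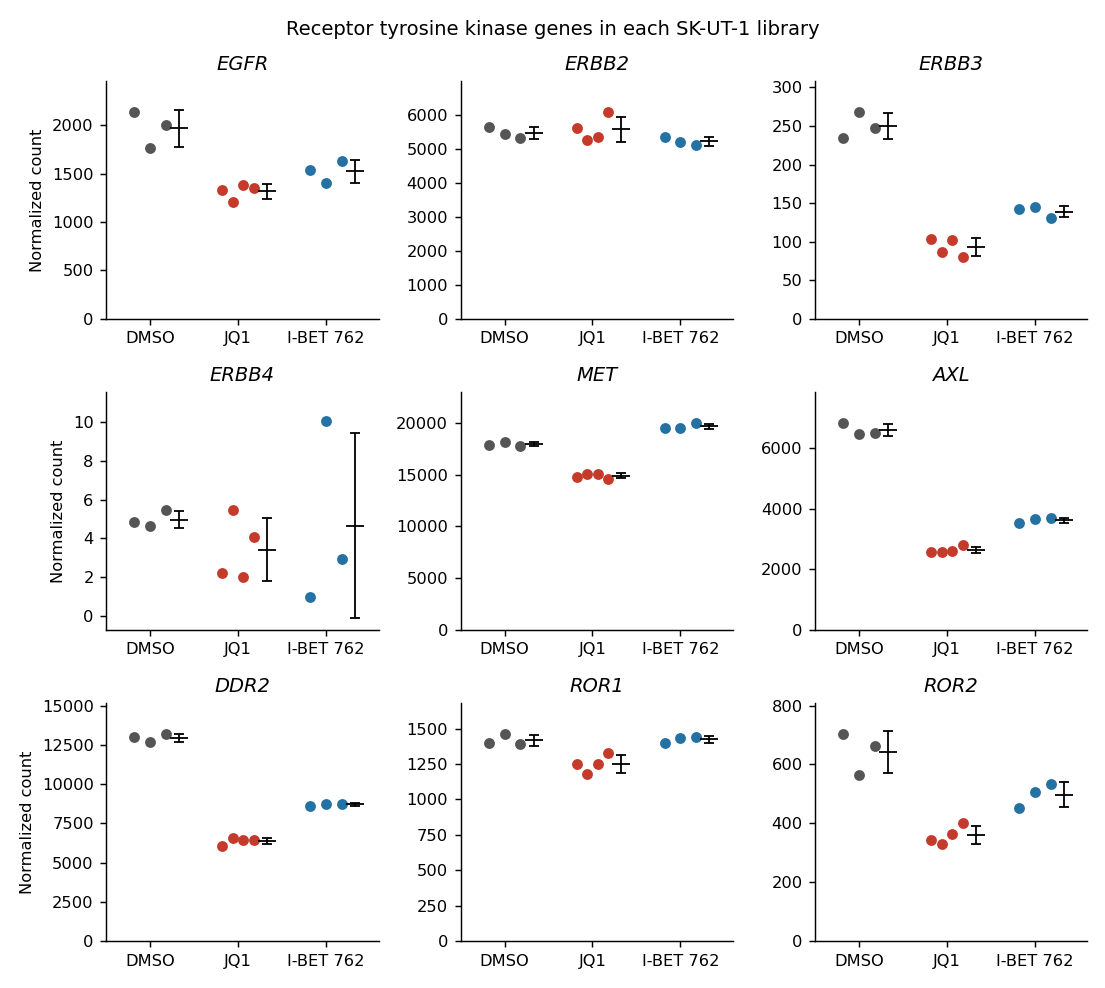
Normalized counts (y axis, linear, a separate scale for each gene) of the 9 receptor genes with values, in each of 3 DMSO, 4 JQ1 and 3 I-BET 762 libraries; points are libraries and the bars beside them are the mean ± SD. For AXL and DDR2 the 3 groups lie apart in the order DMSO, I-BET 762, JQ1, and for MET the I-BET 762 libraries lie above the DMSO libraries and the JQ1 libraries below them.

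ERBB3 was the ERBB receptor that fell furthest. This receptor signals through its partners and carries many docking sites for phosphoinositide 3-kinase. It lies at chr12:56076799-56103505 on the forward strand (GRCh38). In the DMSO libraries it had 234, 268 and 248 normalized counts. In the JQ1 libraries it had 103, 87.0, 102 and 80.1, and in the I-BET 762 libraries 142, 144 and 131. Every treated library was below every DMSO library, and every JQ1 library was below every I-BET 762 library. The log2 fold change was -1.42 (SE 0.12, adjusted p = 2.80e-08) with JQ1 and -0.84 (SE 0.13, adjusted p = 3.60e-05) with I-BET 762 in limma.

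EGFR, the receptor of the epidermal growth factor (chr7:55019017-55211628, forward strand), fell less. Its normalized counts were 2137, 1766 and 1998 with DMSO, 1333, 1204, 1384 and 1353 with JQ1, and 1534, 1399.6 and 1635 with I-BET 762. No treated library reached the lowest DMSO library, and the JQ1 and I-BET 762 libraries also lay apart, by a narrow margin. With JQ1 the log2 fold change was -0.57 (SE 0.07, adjusted p = 3.13e-06), a 1.49-fold decrease that stopped just short of the 1.5-fold line. With I-BET 762 it was -0.37 (SE 0.08, adjusted p = 0.000737). EGFR passed the line with JQ1 under scaling by library totals (-0.76) or by upper quartiles (-0.64) and without DMSO replicate 14 (-0.65), JQ1 replicate 19 (-0.60) or JQ1 replicate 20 (-0.59).

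ERBB2 (chr17:39687914-39730426, forward strand), the partner receptor without a ligand, had nearly the same level in every group. It had 5650.3, 5423 and 5301 normalized counts with DMSO, 5599.6, 5248, 5358 and 6079 with JQ1, and 5349.9, 5190.3 and 5109 with I-BET 762, and the 3 groups overlapped. The 95% interval of its log2 fold change was -0.08 to 0.14 for JQ1, and for I-BET 762 it was -0.18 to 0.05, so a change of 1.5-fold in either direction lay outside both. Rescaled to equal totals, the log2 fold change with JQ1 was -0.16 (adjusted p = 0.0306) in place of 0.03. Of the exon bases of ERBB2, 571 (5.53%) are shared with MIEN1 on the opposite strand, and the strand setting of the counting was not given in the sources used here.

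ERBB4 (chr2:211375717-212538841, reverse strand), a neuregulin receptor with an active kinase, was close to the limit of detection. It had 4.62 to 5.46 normalized counts with DMSO, 2.0 to 5.44 with JQ1 and 0.984 to 10 with I-BET 762, at most 10 reads in any library. It failed the filter of 10 normalized counts in 3 libraries and was not tested. At this depth no difference between the groups was detectable.

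MET (chr7:116672196-116798377, forward strand), which drives cell scattering and growth when bound by hepatocyte growth factor, moved in opposite directions with the inhibitors. It had 17917, 18147 and 17751 normalized counts with DMSO. All 4 JQ1 libraries were lower, at 14818, 15029.9, 15121 and 14568. All 3 I-BET 762 libraries were higher, at 19559.6, 19488 and 19992. The 3 groups did not overlap. Both changes were small: the log2 fold change was -0.27 (SE 0.04, adjusted p = 2.05e-05) with JQ1 and 0.13 (SE 0.04, adjusted p = 0.0145) with I-BET 762. The difference between the inhibitors was -0.40 (95% interval -0.49 to -0.32, adjusted p = 5.82e-06), and it was between -0.49 and -0.39 under every alternative setting. The rise with I-BET 762 was 0.04 (adjusted p = 0.408) under rescaling to equal totals.

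AXL (chr19:41219223-41261766, forward strand), a receptor tied to migration and drug resistance in many tumours, fell with both inhibitors. It had 6839, 6479 and 6514 normalized counts with DMSO. The JQ1 libraries had 2586, 2588, 2594 and 2800.3, and the I-BET 762 libraries 3534, 3656 and 3684. The groups were far apart beside the spread within them, and the JQ1 libraries kept 40.0% of the DMSO mean against 54.8% for the I-BET 762 libraries. The log2 fold change was -1.32 (SE 0.05, adjusted p = 8.70e-13) with JQ1 and -0.87 (SE 0.05, adjusted p = 7.21e-10) with I-BET 762. Of all tested genes, 10.4% had a lower fold change than AXL with JQ1 and 13.1% with I-BET 762.

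DDR2 (chr1:162631373-162787405, forward strand), which fibrillar collagens activate, kept 49.3% of its DMSO mean with JQ1 and 67.2% with I-BET 762. It had 12994, 12654 and 13175 normalized counts with DMSO, 6076, 6548, 6426 and 6459.8 with JQ1, and 8619, 8739 and 8741 with I-BET 762. As for AXL, the groups lay far apart and the JQ1 libraries were lowest. The log2 fold change was -1.02 (SE 0.04, adjusted p = 6.17e-12) with JQ1. With I-BET 762 it was -0.57 (SE 0.05, adjusted p = 2.78e-08), a 1.49-fold decrease, which passed the 1.5-fold line under scaling by library totals (-0.67), by upper quartiles (-0.61) or when DMSO replicate 14 was left out (-0.59). Of 138 exon stretches of 75 bases along DDR2, 16 (11.6%) have an exact copy elsewhere on the main chromosomes, and how reads with several matches were counted was not given in the sources used here.

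DDR1 (chr6:30876421-30900156, forward strand), the collagen receptor more typical of epithelia, had no row of values in the table, so its expression is not known from these data. All 111 of its 111 exon stretches of 75 bases (100%) have exact copies on 6 alternate contigs of hg38, whereas the other 8 receptors apart from DDR2 have 0 copies. Among listed genes with such copies for most stretches values differed: HRAS (100%) ranged from 1.0 to 91.5 normalized counts, BRD2 (95.6%) from 6.78 to 153 and CRK (88.5%) from 569 to 1179.5. Which contigs the alignment index held was not given in the sources used here, and whether these copies took part in the missing row of DDR1 was not tested.

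The ROR receptors differed from each other. ROR2 (chr9:91563091-91950228, reverse strand), which with WNT5A acts on cell polarity and movement, had 702, 564 and 662 normalized counts with DMSO, 342, 331, 362 and 401 with JQ1, and 451, 507 and 534 with I-BET 762. Its 3 groups did not overlap, although the lowest DMSO library was close to the highest I-BET 762 library. The log2 fold change was -0.84 (SE 0.09, adjusted p = 7.60e-07) with JQ1 and -0.37 (SE 0.10, adjusted p = 0.00494) with I-BET 762. ROR1 (chr1:63774017-64181498, forward strand), a receptor of fetal tissues and several tumours, had 1399, 1459.8 and 1389.6 normalized counts with DMSO, 1248, 1178, 1249 and 1328 with JQ1, and 1398, 1435 and 1442 with I-BET 762. The JQ1 libraries were below all others by a small margin (log2 fold change -0.18, SE 0.05, adjusted p = 0.00678). The I-BET 762 and DMSO libraries overlapped, with a log2 fold change of 0.01 (95% interval -0.11 to 0.13) that was -0.09 when libraries were rescaled to equal totals.

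JQ1 and I-BET 762 were given at the same dose and for the same time. Whether that dose blocked BET proteins equally was not tested. Against DMSO, JQ1 changed 36.1% of all tested genes and I-BET 762 changed 26.9%. The JQ1 libraries were also compared directly with the I-BET 762 libraries. In limma 0 of the 8 receptors passed both thresholds in that comparison, where 5.31% of all tested genes did, and limma-voom on the recovered reads also called 0. By the adjusted p alone 7 of 8 were lower with JQ1, where 14.0% of all tested genes were. An unadjusted p under 0.05 gave the same 7. The groups of those 7 did not overlap, and the share of all tested genes without overlap was not computed. The log2 differences (JQ1 minus I-BET 762) were -0.58 for ERBB3 (95% interval -0.84 to -0.32, adjusted p = 0.00240), -0.47 for ROR2 (-0.67 to -0.27, adjusted p = 0.00184) and -0.46 for AXL (-0.55 to -0.36, adjusted p = 5.80e-06). They were -0.45 for DDR2 (-0.54 to -0.36, adjusted p = 3.00e-06), -0.21 for EGFR (-0.36 to -0.05, adjusted p = 0.0465) and -0.19 for ROR1 (-0.30 to -0.08, adjusted p = 0.0159). For ERBB2 the interval ran from -0.02 to 0.20, with an adjusted p of 0.204. Across the alternative settings the adjusted p reached 0.215 for EGFR and 0.0640 for ROR1, and ERBB3 crossed the 1.5-fold line in 5 of them, among which those without JQ1 replicate 17 (-0.63), JQ1 replicate 19 (-0.63) or I-BET 762 replicate 23 (-0.62).

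**Figure D2:**
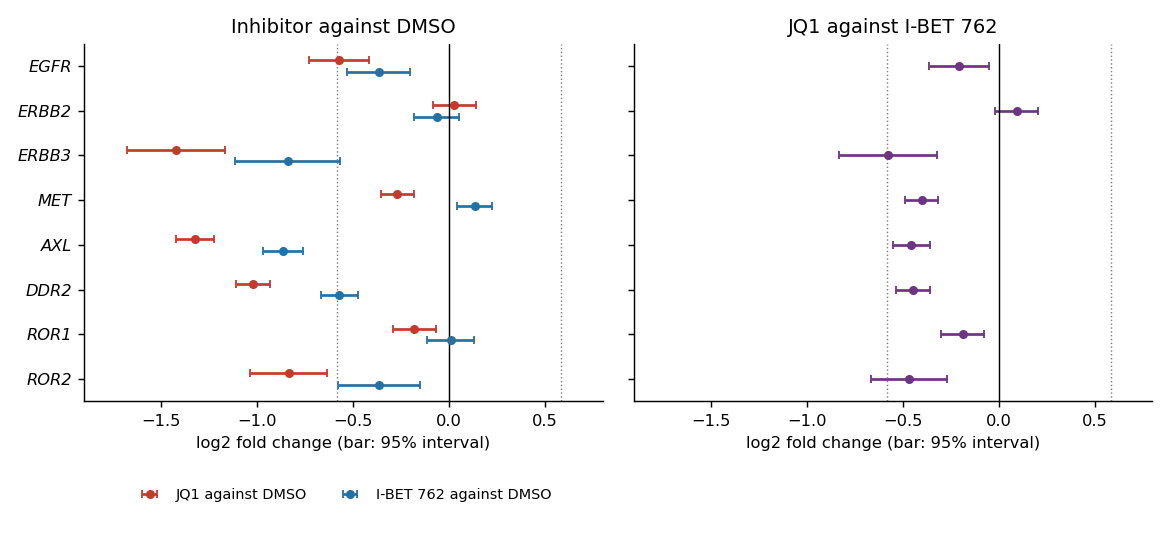
Log2 fold changes (x axis) of the 8 tested receptors with 95% intervals, against DMSO on the left (red, JQ1; blue, I-BET 762) and JQ1 against I-BET 762 on the right; the dotted lines mark a 1.5-fold change. ERBB3, AXL, DDR2 and ROR2 lie left of the line with JQ1, EGFR with JQ1 and DDR2 with I-BET 762 stop just short of it, and on the right all but ERBB2 lie below 0.

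Levels of different receptors were compared as normalized counts per kilobase of exon. Over all annotated exons the order in DMSO was MET (2483 ± 27.5), AXL (1288 ± 38.6), DDR2 (1166 ± 23.9), ERBB2 (529 ± 17.2), ROR1 (211 ± 5.65), EGFR (123 ± 11.8), ROR2 (109 ± 12.1), ERBB3 (21.3 ± 1.45) and ERBB4 (0.382 ± 0.033). Only the neighbours EGFR and ROR2 overlapped between libraries. With JQ1, MET led at 2060.4 ± 34.1, and DDR2 (575 ± 18.7), ERBB2 (539.8 ± 35.8) and AXL (515 ± 20.6) followed with overlapping neighbours. With I-BET 762 the order was MET (2724 ± 37.8), DDR2 (784 ± 6.31), AXL (706 ± 15.5) and ERBB2 (505 ± 11.9), with no overlap among these 4. AXL thus stood above DDR2 in DMSO and below it with both inhibitors. Divided by the longest transcript instead, the order in DMSO was the same, while ERBB2 came next after MET under JQ1 (1130.1 ± 74.9) and under I-BET 762 (1058 ± 24.9).

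**Figure D3:**
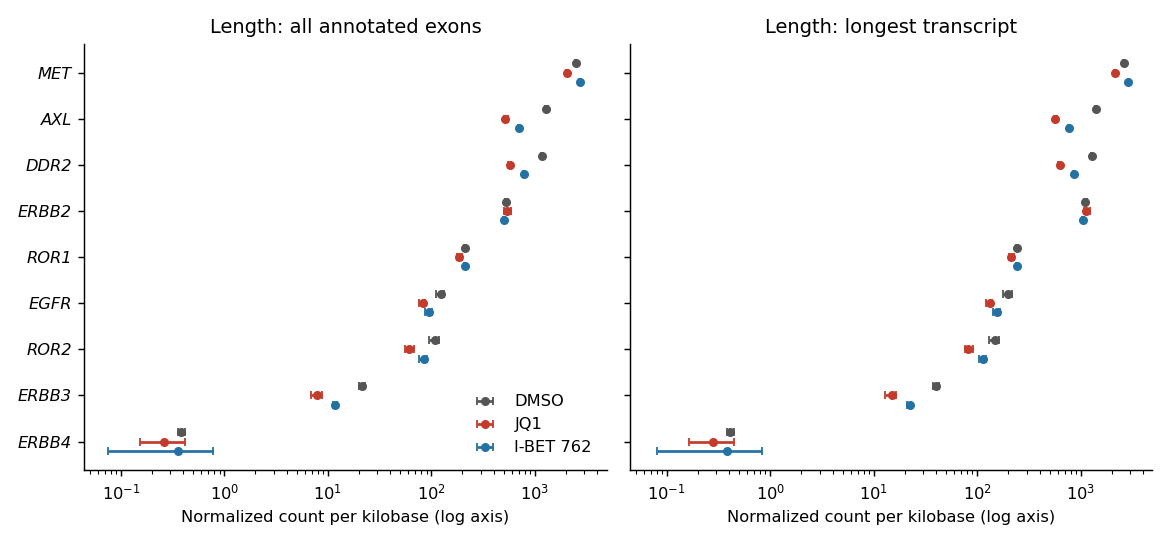
Normalized counts per kilobase (x axis, log scale) of the 9 receptors, as group means with bars from the lowest to the highest library (grey, DMSO; red, JQ1; blue, I-BET 762), with exon length taken over all annotated exons on the left and from the longest transcript on the right. MET stands highest in every group, ERBB4 lowest, and AXL and DDR2 stand above ERBB2 in DMSO under both lengths.

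The make-up of each receptor family was described by the members' shares of the family's summed level per kilobase over all exons. In DMSO, ERBB2 made up 78.5% ± 1.05 of the ERBB family, EGFR 18.3% ± 1.29, ERBB3 3.17% ± 0.31 and ERBB4 0.0568% ± 0.0058. With JQ1 the share of ERBB2 was 85.6% ± 0.87, that of EGFR 13.1% ± 0.72 and that of ERBB3 1.27% ± 0.19. With I-BET 762 these shares were 82.4% ± 1.03, 15.6% ± 1.17 and 1.94% ± 0.10. The ERBB2 share did not overlap between any of the 3 groups. Per longest transcript the ERBB2 share was 82.3%, 88.4% and 85.7% in the same order. In the ROR family the share of ROR1 was 65.9% ± 3.07 with DMSO, 75.3% ± 0.78 with JQ1 and 71.5% ± 1.42 with I-BET 762.

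AXL shares GAS6 with the other TAM receptors, TYRO3 and MERTK, which moved in opposite directions. TYRO3 fell from 2356 ± 68.5 normalized counts in DMSO to 454 ± 27.8 under JQ1 and 663 ± 36.2 under I-BET 762, log2 fold changes of -2.38 and -1.83. MERTK, known for the uptake of dying cells, rose from 325 ± 13.9 to 597 ± 30.8 and 592 ± 34.9, log2 fold changes of 0.88 and 0.86. All 4 changes passed the call rule. The share of AXL in the summed TAM level per kilobase was 81.2% ± 0.62 with DMSO, 73.4% ± 0.48 with JQ1 and 77.5% ± 1.09 with I-BET 762, while that of MERTK was 4.96% ± 0.14, 20.6% ± 0.72 and 15.7% ± 0.76. The summed TAM level was 1585 ± 35.3, 701 ± 27.1 and 911 ± 17.9 normalized counts per kilobase in the same order.

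**Figure D4:**
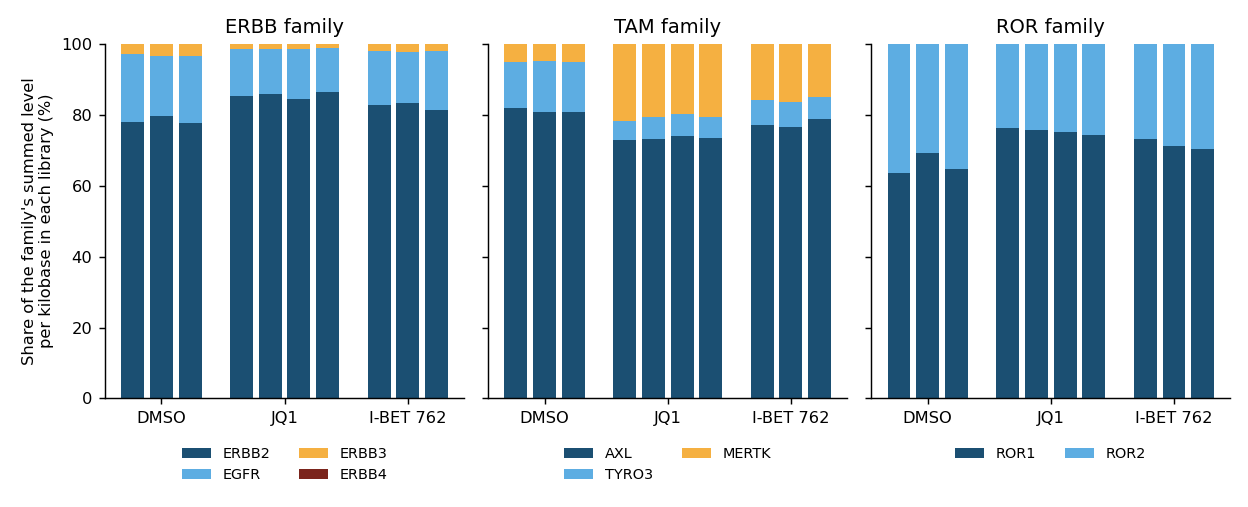
Share of each receptor (y axis, percent) in the summed level per kilobase of its family, over all annotated exons, with 1 bar per library in the DMSO, JQ1 and I-BET 762 groups. ERBB2 and ROR1 take a larger share of their families in every treated library than in any DMSO library, and AXL a smaller share of the TAM family.

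The stretch before the transcription start of 4 receptors is shown because 3 of them (AXL, DDR2 and ROR2) fell together with JQ1 and MET moved differently. The RefSeq promoter table (GRCh38.p14) was matched by symbol for 9 of the receptors (all but ERBB3), and for 8 of these the entry started at the annotated main start. That of ERBB2 lay 11970 bases from the main start. Each sequence holds the 250 bases before the start, read 5′ to 3′ on the gene's strand, with GC boxes (GGGCGG or its reverse complement CCGCCC), to which SP1-type factors bind, in capitals. They lie at chr19:41218973-41219222 for AXL, chr1:162632214-162632463 for DDR2, chr9:91950229-91950478 (reverse strand) for ROR2 and chr7:116671946-116672195 for MET.
AXL: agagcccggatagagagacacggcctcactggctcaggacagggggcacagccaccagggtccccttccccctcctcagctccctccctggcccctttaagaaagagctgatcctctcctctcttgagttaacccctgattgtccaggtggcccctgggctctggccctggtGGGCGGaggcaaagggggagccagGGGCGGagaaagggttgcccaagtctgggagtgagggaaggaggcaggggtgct
DDR2: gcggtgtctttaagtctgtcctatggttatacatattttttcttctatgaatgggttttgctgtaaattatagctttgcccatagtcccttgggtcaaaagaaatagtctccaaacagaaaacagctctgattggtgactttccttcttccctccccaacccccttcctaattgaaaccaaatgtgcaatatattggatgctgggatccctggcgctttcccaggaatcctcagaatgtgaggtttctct
ROR2: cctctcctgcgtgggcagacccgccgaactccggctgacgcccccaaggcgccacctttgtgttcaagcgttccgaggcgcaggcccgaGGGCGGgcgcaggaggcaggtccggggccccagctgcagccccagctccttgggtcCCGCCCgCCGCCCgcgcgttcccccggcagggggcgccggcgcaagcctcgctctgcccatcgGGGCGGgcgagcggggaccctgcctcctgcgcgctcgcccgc
MET: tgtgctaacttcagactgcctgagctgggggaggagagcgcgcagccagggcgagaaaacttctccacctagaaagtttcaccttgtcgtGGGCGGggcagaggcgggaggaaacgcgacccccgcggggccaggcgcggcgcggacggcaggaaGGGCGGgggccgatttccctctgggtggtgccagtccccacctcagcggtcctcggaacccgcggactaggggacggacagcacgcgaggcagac
A GC box was found 2 times before AXL, 0 times before DDR2, 4 times before ROR2 and 2 times before MET, and 42.5% of 34943 such windows in the table hold at least 1. AP-1 sites (TGACTCA or TGAGTCA, in 4.22% of windows), E-boxes (CACGTG, 6.32%) and TATA boxes (TATAAA or TTTATA, 10.8%) were found 0 times in these 4 windows. The windows differed in base composition. That of DDR2 was 42.4% G or C with 2 CpG dinucleotides and that of AXL 64.4% with 4, whereas MET had 68.4% with 24 and ROR2 78.0% with 32, beside a median of 58.0% and 11 over all windows. These matches describe letters in a window and not binding.

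The 89 genes listed as ligands, sheddases, partners, downstream proteins and attenuators of these receptors included 80 tested. JQ1 lowered 24 and raised 6 of these 80, I-BET 762 lowered 16 and raised 4, and JQ1 differed from I-BET 762 in 9 (8 lower, 1 higher). The median log2 fold change of the 80 was -0.10 with JQ1 and -0.02 with I-BET 762. Called lower were thus 30.0% of the 80 with JQ1 and 20.0% with I-BET 762, beside 22.8% and 17.9% of all tested genes, and called higher 7.50% and 5.00%, beside 13.3% and 8.96%. Between the inhibitors 11.2% were called, beside 5.31%. AREG, HGFAC and WNT5A are counted here although they passed the filter on low values only through 1 group.

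Of the 11 ERBB ligands 7 were tested, and they moved in both directions: JQ1 called 3 higher (AREG among them) and 3 lower, and I-BET 762 called 2 higher and 2 lower, beside 13.3% and 22.8% of all tested genes for JQ1 and 8.96% and 17.9% for I-BET 762. HBEGF, heparin-binding EGF, which binds EGFR and ERBB4, rose from 102 ± 3.23 normalized counts in DMSO to 364 ± 32.5 under JQ1 and 271 ± 25.7 under I-BET 762. Its log2 fold changes were 1.82 (SE 0.10, adjusted p = 1.75e-10) and 1.40 (SE 0.11, adjusted p = 2.12e-08) in limma. NRG2, a neuregulin, rose with both inhibitors (log2 fold changes 0.75 and 0.86). AREG, amphiregulin, had 1.94 to 7.28 normalized counts with DMSO and 7.62 to 17.2 with JQ1. It passed the filter on low values only through the JQ1 libraries, so its call there was set by the filter and is given as a value alone. EPGN, epigen, fell from 456 to 118 and 187 normalized counts (log2 fold changes -1.96 and -1.28). EREG, epiregulin, fell with both (-0.80 and -0.87), and NRG1, the neuregulin that binds ERBB3 and ERBB4, fell with JQ1 (-0.68) and had a log2 fold change of -0.48 with I-BET 762. TGFA did not pass the test, with a 95% interval of -0.69 to 0.95 for JQ1, and -0.29 to 1.46 for I-BET 762. The sheddases that free these ligands, ADAM10 and ADAM17, and their cofactors RHBDF1 and RHBDF2 gave 0 calls of 4 tested in limma, with log2 fold changes of -0.30 to 0.38 against DMSO, although ADAM10, ADAM17 and RHBDF1 were higher with both inhibitors at an adjusted p under 0.05 and RHBDF2 was lower with I-BET 762 (-0.30, adjusted p = 0.0200).

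For MET, the gene of its ligand HGF had no row of values. Of 8 listed partners 5 were tested, of which 4 were called lower with JQ1 (beside 22.8% of all tested genes) and 2 with I-BET 762 (beside 17.9%). SPINT1 and SPINT2, membrane inhibitors of the proteases that activate hepatocyte growth factor, fell from 352 and 43.6 normalized counts in DMSO to 88.8 and 8.35 under JQ1 and 99.9 and 12.9 under I-BET 762. MST1, the ligand of the related receptor RON, fell with JQ1 from 66.4 to 45.2 normalized counts. HGFAC, which encodes a protease that activates hepatocyte growth factor, had 22.6 with DMSO, 6.84 with JQ1 and 16.5 with I-BET 762, and passed the filter on low values only with the DMSO libraries counted in, so its call with JQ1 was partly set by the filter. The libraries for MST1 overlapped between groups, and 25% of its exon stretches have exact copies elsewhere on the main chromosomes.

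GAS6, the ligand of AXL, fell from 930.0 ± 74.4 normalized counts in DMSO to 426 ± 62.9 under JQ1 and 564 ± 27.7 under I-BET 762, log2 fold changes of -1.13 (adjusted p = 7.08e-08) and -0.72 (adjusted p = 3.96e-05). PROS1, protein S, a ligand of TYRO3 and MERTK, fell with JQ1 (-0.59, just past the 1.5-fold line) and had a log2 fold change of -0.53 with I-BET 762.

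Of 8 tested collagen genes among the ligands of the DDR receptors, JQ1 lowered 6 and raised 1 (beside 22.8% lower and 13.3% higher of all tested genes), and I-BET 762 lowered 5 and raised 1 (beside 17.9% and 8.96%). COL3A1, of fibrillar type III collagen, fell from 28783 ± 1204 normalized counts to 2645 ± 264 under JQ1 and 5673 ± 392 under I-BET 762, log2 fold changes of -3.45 and -2.34. COL1A1 (-3.44 and -2.18), COL5A1 (-2.27 and -1.66), COL4A1 (-1.18 and -1.02) and COL4A2 (-1.0 and -0.83) fell with both, and COL1A2 fell with JQ1 (-0.82) and had a value of -0.47 with I-BET 762. COL2A1, of cartilage collagen, rose from 22.7 to 83.8 and 86.8 normalized counts (1.84 and 1.89). COL5A2 had log2 fold changes of -0.13 and 0.00. Of the 7 smooth muscle markers with a row, 7 were called lower with JQ1 and 6 with I-BET 762. The sum of these 7 markers was 18349 to 19386 normalized counts with DMSO, 8186 to 8842 with JQ1 and 9624 to 10024 with I-BET 762. Their part in the fall of DDR2 and the collagens was not tested.

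Of 8 tested partners of the ROR receptors, 3 were called lower with JQ1 (37.5%, beside 22.8% of all tested genes) and 2 with I-BET 762 (beside 17.9%), and WNT5A was in both counts. WNT5A, their best known ligand, had 21.7 normalized counts in DMSO, 2.88 under JQ1 and 6.63 under I-BET 762. It passed the filter on low values only through the DMSO libraries, so these values are a description. WNT5B fell with JQ1 (-0.59, just past the line) and had a value of -0.45 with I-BET 762. VANGL2, a protein of the planar cell polarity pathway, fell from 429 to 118 and 178 normalized counts (-1.85 and -1.26).

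Downstream of all these receptors, of 29 tested adaptors and kinases, JQ1 lowered 4 (GAB1, GAB2, MAPK3 and SRC, 13.8%) and I-BET 762 lowered 2 (MAPK3 and SRC, 6.90%), beside 22.8% and 17.9% of all tested genes. Called higher in limma were 0 of them with either inhibitor, beside 13.3% and 8.96% of all tested genes. At an adjusted p under 0.05 with any fold, 12 were higher and 9 lower with JQ1, and 9 were higher and 10 lower with I-BET 762. Of the 14839 tested genes, 5344 were higher and 5289 lower with JQ1 by that rule. With I-BET 762 these were 4434 and 4639. MAPK3, the kinase ERK1, fell from 1114 ± 30.5 normalized counts to 256 ± 14.0 and 372 ± 49.1, log2 fold changes of -2.12 and -1.59, and SRC fell by 1.17 and 1.05 on the log2 scale. Of 15 tested attenuators, JQ1 lowered 1 (6.67%, beside 22.8% of all tested genes) and raised 1 (6.67%, beside 13.3%). I-BET 762 lowered 1 (6.67%, beside 17.9%) and raised 0 (beside 8.96%). LRIG3, listed among them, fell with both (-1.98 and -1.96). ERRFI1, an inhibitor of the EGFR kinase, rose with JQ1 from 6151 ± 149.9 to 13004 ± 200.3 normalized counts (log2 fold change 1.08) and had a value of 0.39 with I-BET 762. The difference between the inhibitors for ERRFI1 was 0.69 (adjusted p = 2.85e-07), the only call among these genes in which JQ1 was higher than I-BET 762.

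**Figure D5:**
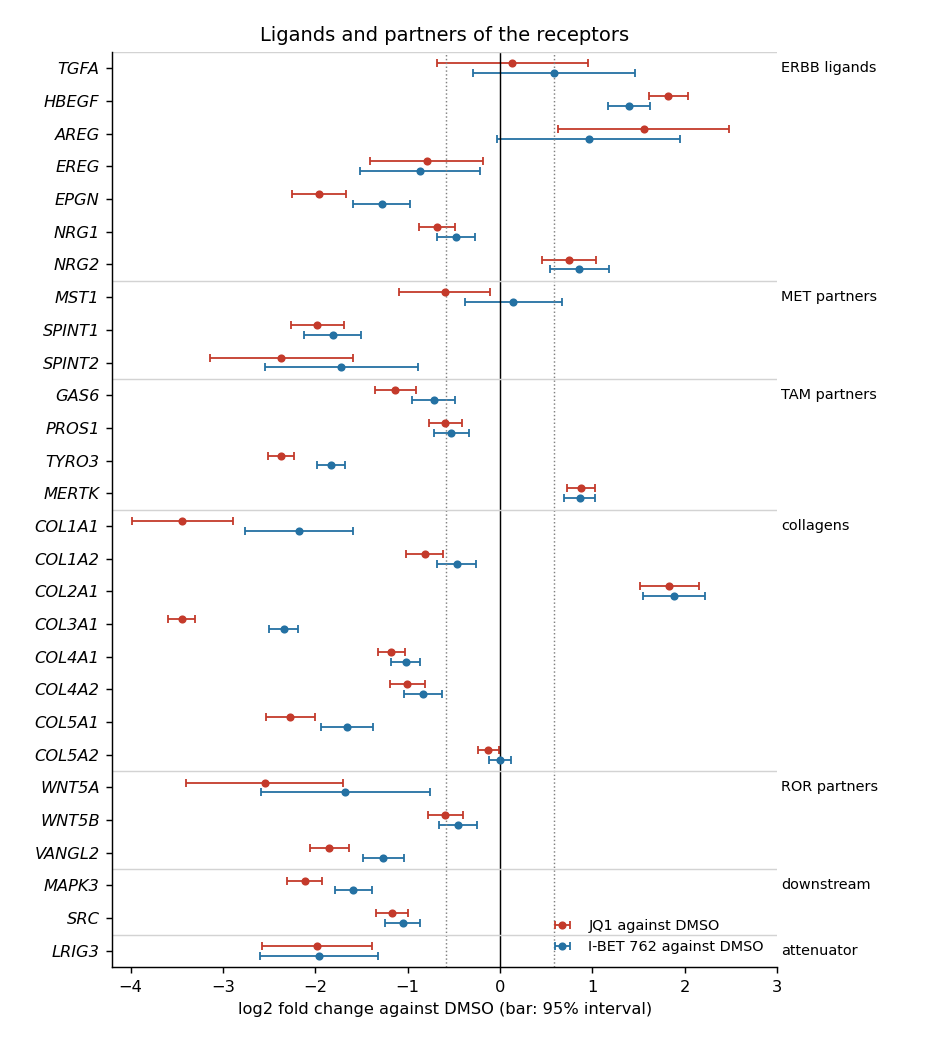
Log2 fold changes against DMSO (x axis, with 95% intervals) of the tested ligands and of the partners called in the same direction with both inhibitors, grouped by the receptor they belong to (red, JQ1; blue, I-BET 762); dotted lines mark a 1.5-fold change. HBEGF, NRG2, MERTK and COL2A1 lie right of 0 with both inhibitors, and TYRO3, GAS6, most collagens, WNT5A and MAPK3 lie left of it.

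The genes whose pattern was most like that of AXL over the 10 libraries, by the root mean square distance of log2 values centred on the DMSO mean, were GRAMD1B (0.0527) and FYCO1 (0.0624). Their log2 fold changes were -1.37 and -1.27 with JQ1 and -0.85 for each with I-BET 762. For ERBB3 they were CTSH (0.107) and IRAK1BP1 (0.118), with -1.44 and -1.39 for JQ1 and -0.82 and -0.95 for I-BET 762. These fold changes lie near those of AXL and ERBB3 because the genes were chosen by that likeness.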

How the data were processed

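RNA was sequenced from SK-UT-1 cells on a NovaSeq 6000 after a strand-specific total RNA preparation. According to the labels and the study's methods, the authors checked reads with FastQC (0.73), trimmed them with Trimmomatic, aligned them to hg38 with HISAT2 (2.2.1), counted them per gene with featureCounts (2.0.3) against Gencode annotation and normalized the counts with DESeq2. The deposited values are log2 values of the normalized count plus 1.

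The log2 values were turned back into normalized counts, and dividing them by the value of 1 read in each library gave whole reads (within 0.01 read) for 99.7% to 99.8% of values, so that 35564586 to 39658989 reads on genes per library set the counting error. Genes with at least 10 normalized counts in 3 or more libraries (14839) were tested on the log2 scale with limma (3.58.1, R 4.3.3, trend in the prior variance) in 1 model over the 3 groups, and p-values were adjusted by Benjamini-Hochberg over all tested genes; intervals are 95% and not adjusted. Fold changes on the log2(normalized count + 1) scale understate changes of genes with few counts. Limma-voom on the recovered reads was an alternative, and the fit was tested on simulated data. Lengths, coordinates and exon overlaps came from GENCODE v44 and exon copies from the hg38 sequence. Libraries of a group differed from each other by 2.77 to 22.1 in chi-square per gene, so none was counted as a copy of another.

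The receptors and the gene lists were chosen with earlier results of these data known, and no test was made over a list. Named were all receptors, every tested ligand, up to 4 genes per other list that both inhibitors changed one way, and the 2 genes nearest in pattern to each receptor called with both. GAB1, GAB2, HGFAC, ERRFI1, HRAS, CRK, MIEN1, CLDN4 and the sheddases were named after their values were seen. Alternatives were other pseudocounts, filters, scalings, fold thresholds and fits, and leaving out each library in turn.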

Additional observations from a re-analysis of the deposited data

Results flagged for a closer look

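Direct comparison of the inhibitors set 7 receptors apart at an adjusted p under 0.05 in limma, each lower with JQ1. By that rule 14.0% of all tested genes were lower with JQ1. MET stood out among them because its JQ1 libraries all lay below the DMSO libraries and its I-BET 762 libraries all above (JQ1 minus I-BET 762 -0.40 on the log2 scale), although the rise with I-BET 762 shrank to 0.04 under rescaling to equal totals. The other differences were -0.58 for ERBB3, -0.47 for ROR2, -0.46 for AXL, -0.45 for DDR2, -0.21 for EGFR and -0.19 for ROR1. Among the ligands and partners the difference also passed the 1.5-fold line for COL1A1 (-1.26, from 15.6 and 37.0 normalized counts), COL3A1 (-1.10), MST1 (-0.75, with overlapping libraries), GAB2 (-0.71), EPGN (-0.68), COL5A1 (-0.61) and VANGL2 (-0.59), and for HGFAC (-1.09), which has few counts and passed the filter on low values only with the DMSO libraries. CTSH also passed it (-0.62), but it was picked for its likeness to ERBB3 over the same libraries, so this is not a separate result. ERRFI1 passed it in the other direction (0.69).

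Of 54 groups of 4 JQ1 libraries examined, 1 for each gene, 4 held a library far from the other 3, where chance gives about 1 in 20. JQ1 replicate 20 was highest for AXL (2800.3 normalized counts) and for COL3A1 (3039), and JQ1 replicate 18 was lowest for GAS6 (333). JQ1 replicate 20 was also lowest for HGFAC (4.06). Without JQ1 replicate 20 the log2 fold change of AXL was -1.35, and it stayed called.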

How the results depend on the processing

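No paired analysis was possible because the groups share no replicate number. AXL and ERBB3 were called lower with both inhibitors under every alternative except a fold change above 2 with I-BET 762, and DDR2 and ROR2 with JQ1 under every alternative except, for ROR2, a fold change above 2. With no fold threshold, 7 of the 8 receptors passed with JQ1, 6 with I-BET 762 and 7 between the inhibitors. Of the 80 tested partners 64, 56 and 26 passed, beside 10633, 9073 and 4047 of the 14839 tested genes. With a fold change above 2, 0 receptors passed for I-BET 762, beside 529 genes higher and 1579 lower. Between the inhibitors 3 partners then passed, beside 71 genes higher and 135 lower. Rescaled to equal totals or equal upper quartiles, 1 receptor (ERBB3) passed between the inhibitors, and leaving out single libraries gave 0 to 1. A mean of at least 100 normalized counts, which leaves fewer genes to test, gave 13 partners for I-BET 762 in place of 20. Of the 11072 genes then tested, I-BET 762 called 891 higher and 1447 lower. The log2 fold change of ERBB2 with JQ1 turned from 0.03 to -0.157 (equal totals) and -0.037 (upper quartiles), and that of ROR1 with I-BET 762 from 0.01 to -0.087 and -0.027; leaving out single libraries gave -0.015 (without JQ1 replicate 20) to 0.056 for ERBB2 and -0.0045 (without DMSO replicate 15) to 0.031 for ROR1. Divided by the longest transcript, the DMSO levels per kilobase were 2609 (MET), 1401 (AXL), 1274 (DDR2), 1107 (ERBB2), 242 (ROR1), 199 (EGFR), 147 (ROR2) and 39.9 (ERBB3), since the divisor is shorter. Groups of 3 and 4 libraries limit the precision of every call near the 1.5-fold line.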
